A study of Ailuropoda melanoleuca with 25 samples.

Results

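Among the gene models of the giant panda (Ailuropoda melanoleuca), 46 of 22924 were read at 20 CPM or more in fibroblasts and in each sampled step of reprogramming up to day 8 of stage II, and at under 1 CPM in the established induced pluripotent stem cells. CPM is the usual count-per-million scale, the estimated count of a model relative to its library's total, here averaged over the libraries of a group. The rule asked for 20 CPM in 5 groups, which are LB PF, XR PF, stage I D8, stage I D24 and stage II D8, and for less than 1 CPM in LB GPiPSC and XR GPiPSC. The models were thus chosen by the measured levels in these 7 groups, which are described here without a test. Of the 3944 models at 20 CPM or more in all 5 groups, the 46 were 1.17%. Of the 164 models at 20 CPM or more in both fibroblast groups and under 1 CPM in both GPiPSC groups, they were 28.0%. The other 118 fell under 20 CPM in at least 1 of the 3 reprogramming steps. These 118 started lower, with medians of 60.0 CPM in LB PF and 52.9 CPM in XR PF against 183 and 224 CPM for the 46. At stage II D8, 89 of the 118 were still at 1 CPM or more.

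The study took primary fibroblasts (PF) to pluripotent stem cells (GPiPSC) with episomal vectors, plasmids that are carried without integration into the genome, and sequenced RNA from 25 libraries in 12 groups. LB PF, XR PF, stage I D8, stage I D24, stage II D8, XR GPiPSC, A83-01 D16, control D16, BACL LB GPiPSC, BACL-CHIR99021 and BACL control have 2 libraries each and LB GPiPSC has 3. D8, D16 and D24 are days 8, 16 and 24. The meaning of LB, XR and BACL is not explained in the labels, and nor is which fibroblasts the stage, day 16, BACL-CHIR99021 and BACL control libraries came from, or to which stage the day 16 cultures belong. A83-01 is an inhibitor of the type I receptors of TGF-β and activin signalling, and CHIR99021 is an inhibitor of the kinase GSK-3 that raises β-catenin signalling. The labels give no dose, and they do not say whether the name BACL-CHIR99021 means that the compound was added to BACL or taken out of it. Nothing says that replicates were separate cultures, so the p-values below weigh differences against the spread of these libraries only, and that spread may be technical.

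Fibroblasts are mesenchymal cells that build extracellular matrix. During reprogramming they lose this programme and pass through a transition from a mesenchymal to an epithelial state, which TGF-β signalling opposes, before the pluripotency network takes over. Some genes of the starting cell are shut early in the process and others only late. The files name models by an assembly identifier and pair none of them with a gene, and 0 of the 22924 identifiers occurred in the RefSeq table of the assembly ASM200744v3. The 26 fibroblast and pluripotency symbols looked up matched no model, so the cell types could not be checked against markers and no role can be given to a model. The 46 models are described by their levels, lengths and identifiers.

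Total estimated counts ran from 8627983 to 14890260 per library, so that a level of 3 counts corresponds to between 0.201 and 0.348 CPM. Replicates correlated at 0.963 to 0.998 over all models (Pearson, log2(CPM + 1)). Differences between the counts of paired replicates, as chi-square over degrees of freedom, were largest in LB PF, XR PF and stage I D24 (108 to 112) and smallest in the 3 BACL groups (1.20 to 1.58), where 1 would be sampling noise alone. LB GPiPSC replicate 3 correlated at 0.981 with each of the other replicates, which correlated at 0.988 with each other, and without it the rule found 45 models, all of them among the 46.

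The 46 models took several percent of all counts in the fibroblast libraries and, as the rule required, almost none in the pluripotent cells. Together they took 4.68% and 3.51% of all counts in LB PF, 6.84% and 6.74% in XR PF, 6.54% and 6.57% at stage I D8, 2.67% and 4.12% at stage I D24, and 1.69% and 1.80% at stage II D8. In LB GPiPSC they took 0.00178%, 0.00136% and 0.00130%, and in XR GPiPSC 0.00110% and 0.00101%. The median model stood at 183 CPM in LB PF, 224 CPM in XR PF, 243 CPM at stage I D8, 127 CPM at stage I D24 and 57.95 CPM at stage II D8, against 0.206 CPM in LB GPiPSC and 0.156 CPM in XR GPiPSC. In LB GPiPSC 17 of the 46 had 3 counts or fewer in every library, and in XR GPiPSC 29. In these bulk libraries fewer cells that express a model and less RNA of it per cell cannot be told apart.

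**Figure D1:**
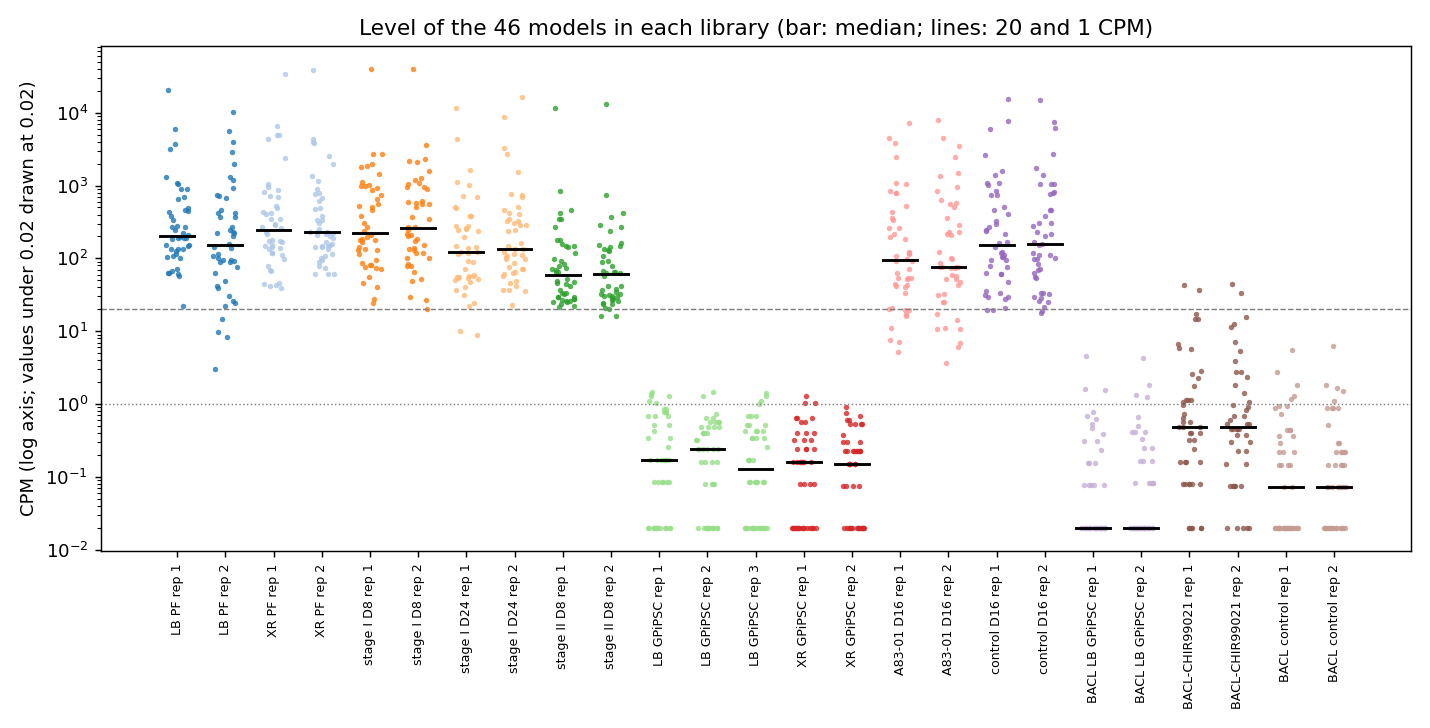
CPM of each of the 46 models (points, log axis) in each of the 25 libraries, coloured by group, with the library's median as a bar and lines at 20 and 1 CPM. Library medians lie between 58.5 and 257 CPM from the fibroblasts to stage II D8, between 76.8 and 155 CPM in the day 16 cultures and under 0.5 CPM in all GPiPSC and BACL libraries.

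The rule works on group means, and single libraries crossed it. All libraries of the 5 groups were at 20 CPM or more for 40 of the 46 models, and all 5 GPiPSC libraries were under 1 CPM for 32. LB PF replicate 2 was under 20 CPM for 4 models, and the lowest of them, evm.model.HIC_ASM_5.1512, had 104 CPM in LB PF replicate 1 and 3.01 CPM in replicate 2. The LB PF replicates were more than 2-fold apart for 21 of the 46, the stage I D24 replicates for 11 and the XR PF replicates for 3, whereas no model was so far apart within stage I D8 or stage II D8. Just inside the 20 CPM minimum was evm.model.HIC_ASM_0.1416, with 20.1 CPM at stage II D8, and just outside it evm.model.HIC_ASM_15.1474, with 19.7 CPM at stage I D8. Just inside the 1 CPM maximum was evm.model.HIC_ASM_5.1027, with 0.985 CPM in XR GPiPSC, and just outside it evm.model.HIC_ASM_5.12, with 1.03 CPM in LB GPiPSC.

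One model had the highest group mean CPM in each of the 5 groups, though not in every library. The model evm.model.HIC_ASM_13.784, with a coding length of 4329 bases, had 20624 and 5592 CPM in LB PF, 33515 and 38166 CPM in XR PF, 39827 and 39224 CPM at stage I D8, 11432 and 16621 CPM at stage I D24, and 11678 and 13319 CPM at stage II D8. In LB GPiPSC it had 1.29, 0.242 and 0.425 CPM, and in XR GPiPSC 0.0802 and 0.153 CPM. Every GPiPSC library was thus below every library up to stage II D8, a gap that the rule had required of the group means. It alone was 3.98% and 3.92% of all counts at stage I D8 and 69.2% and 73.8% of the summed CPM of the 46 models at stage II D8. In LB PF replicate 2 its share of that sum was 15.9%, and evm.model.HIC_ASM_14.1067 was higher there, with 10064 CPM. Without evm.model.HIC_ASM_13.784 the others summed to 26218 and 29512 CPM in LB PF, 34928 and 29248 CPM in XR PF, 25584 and 26501 CPM at stage I D8, 15292 and 24609 CPM at stage I D24, and 5209 and 4722 CPM at stage II D8.

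Levels of different models can be compared only per length, for which the deposited TPM (transcript abundance corrected for effective length) serves. By the geometric mean over the 5 groups evm.model.HIC_ASM_0.1428, a short model of 348 bases, was highest with 4441 TPM, and evm.model.HIC_ASM_13.784 followed with 2240 TPM. The lowest was evm.model.HIC_ASM_11.80, a model of 4848 bases, with 6.42 TPM, and the median of the 46 was 89.9 TPM. In reads the second highest was evm.model.HIC_ASM_1.498, with a geometric mean of 2296 CPM or 279 TPM, and the lowest were evm.model.HIC_ASM_2.1618 and evm.model.HIC_ASM_3.1340, with 36.4 and 38.4 CPM.

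Although all 46 stayed above 20 CPM, most were below their fibroblast level by stage II D8. Relative to the mean of LB PF and XR PF, the median model stood at 99.3% at stage I D8, 51.5% at stage I D24 and 22.5% at stage II D8. At stage II D8, 45 of the 46 were below the fibroblast mean, 34 of them by more than 2-fold, and stage II D8 was the lowest of the 5 groups for 35 models and the highest for none. The deposited TPM gave a median of 16.6% with 44 over 2-fold below, and TMM scaling, which corrects for the make-up of a library, gave 27.0% with 29 over 2-fold below. The highest group was stage I D8 for 16 models, LB PF for 13, XR PF for 13 and stage I D24 for 4. A lower mean at each of the 3 steps was seen for 12 models, and 22 stood above the fibroblast mean at stage I D8 before they stood below it at stage II D8.

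Retention to stage II was uneven among the models. At stage II D8, 12 models were at 50% or more of the fibroblast mean, 28 at 10 to 50% and 6 under 10%. In CPM the model evm.model.HIC_ASM_16.341 was the single one above the fibroblast mean, at 124% of it, whereas on the deposited TPM all 46 were below. It had 21.9 and 48.2 CPM in LB PF, 120 and 216 CPM in XR PF, 303 and 272 CPM at stage I D8, 92.1 and 42.4 CPM at stage I D24, and 120 and 132 CPM at stage II D8. Its stage II D8 libraries lay above both LB PF libraries, but the higher XR PF library lay above them. At the other end evm.model.HIC_ASM_14.1067 was at 3.01% of the fibroblast mean, with 3165 and 10064 CPM in LB PF, 4293 and 3884 CPM in XR PF, 920 and 969 CPM at stage I D8, 1651 and 2735 CPM at stage I D24, and 176 and 146 CPM at stage II D8. Its highest group mean among the 5 was 41.1 times its lowest, the widest range of the 46. The next widest was that of evm.model.HIC_ASM_1.275, 33.4 times, with 25.5 and 16.4 CPM at stage II D8 against 490 and 912 CPM in LB PF. The narrowest was that of evm.model.HIC_ASM_9.633, 1.94 times, with 71.9 and 67.3 CPM at stage II D8 and 71.6 and 38.7 CPM in LB PF, followed by evm.model.HIC_ASM_2.1618 at 2.32 times.

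**Figure D2:**
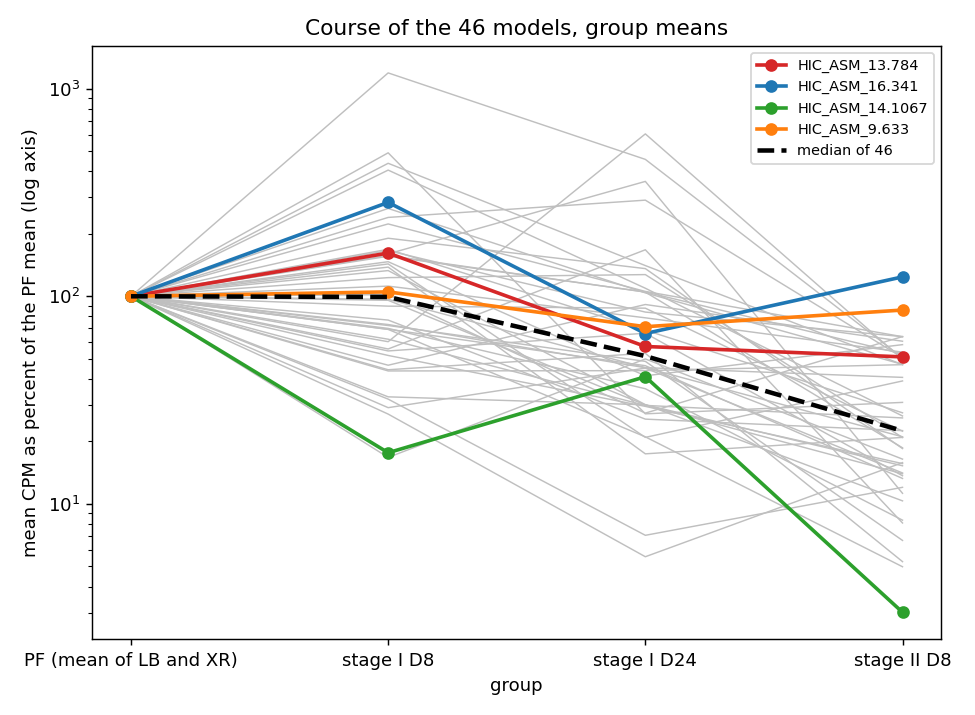
Mean CPM of each of the 46 models at stage I D8, stage I D24 and stage II D8 as a percent of its mean over LB PF and XR PF (log axis); grey lines are single models, the dashed line is the median and 4 models are coloured. The median runs at 99.3%, 51.5% and 22.5%, while at stage II D8 the models span 3.01% (evm.model.HIC_ASM_14.1067) to 124% (evm.model.HIC_ASM_16.341).

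Step by step, stage I D8 against the fibroblast mean held 8 models over 2-fold higher and 9 over 2-fold lower, where 14.1% and 36.3% of the 17225 models tested, and 9.2% and 13.8% of the 3944 at 20 CPM or more in all 5 groups, passed that fold. Stage I D24 against stage I D8 held 5 over 2-fold higher and 21 over 2-fold lower (31.4% and 10% of the models tested, 15.1% and 7.56% of the 3944). Stage II D8 against stage I D24 held 2 over 2-fold higher and 25 over 2-fold lower (6.96% and 35.3% of the models tested, 5.3% and 8.39% of the 3944). The median log2 ratios of the 46 over these steps were -0.01, -0.89 and -1.12, against -0.06, 0.29 and 0.05 in the 3944. Since the rule used these groups, nothing is read from the shares. The scale matters here, because TMM factors ran from 0.622 at stage I D8 to 1.05 in stage I D24 replicate 2: TMM scaling gave medians of 0.38, -1.28 and -0.86 for the 46 and 0.34, -0.09 and 0.34 for the 3944. With TMM scaling 14 models were over 2-fold higher at stage I D8 than in fibroblasts, and stage II D8 was the lowest group for 27 models.

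Models differed in the step into stage II. Both stage II D8 libraries were below both stage I D24 libraries for 32 models and above both for 8. The highest log2 ratio of group mean CPM was that of evm.model.HIC_ASM_5.1027, 1.51, and the lowest that of evm.model.HIC_ASM_14.1068, -4.99. The model evm.model.HIC_ASM_14.1068 had 44.6 and 26.0 CPM at stage II D8 and 692 and 1551 CPM at stage I D24.

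**Figure D3:**
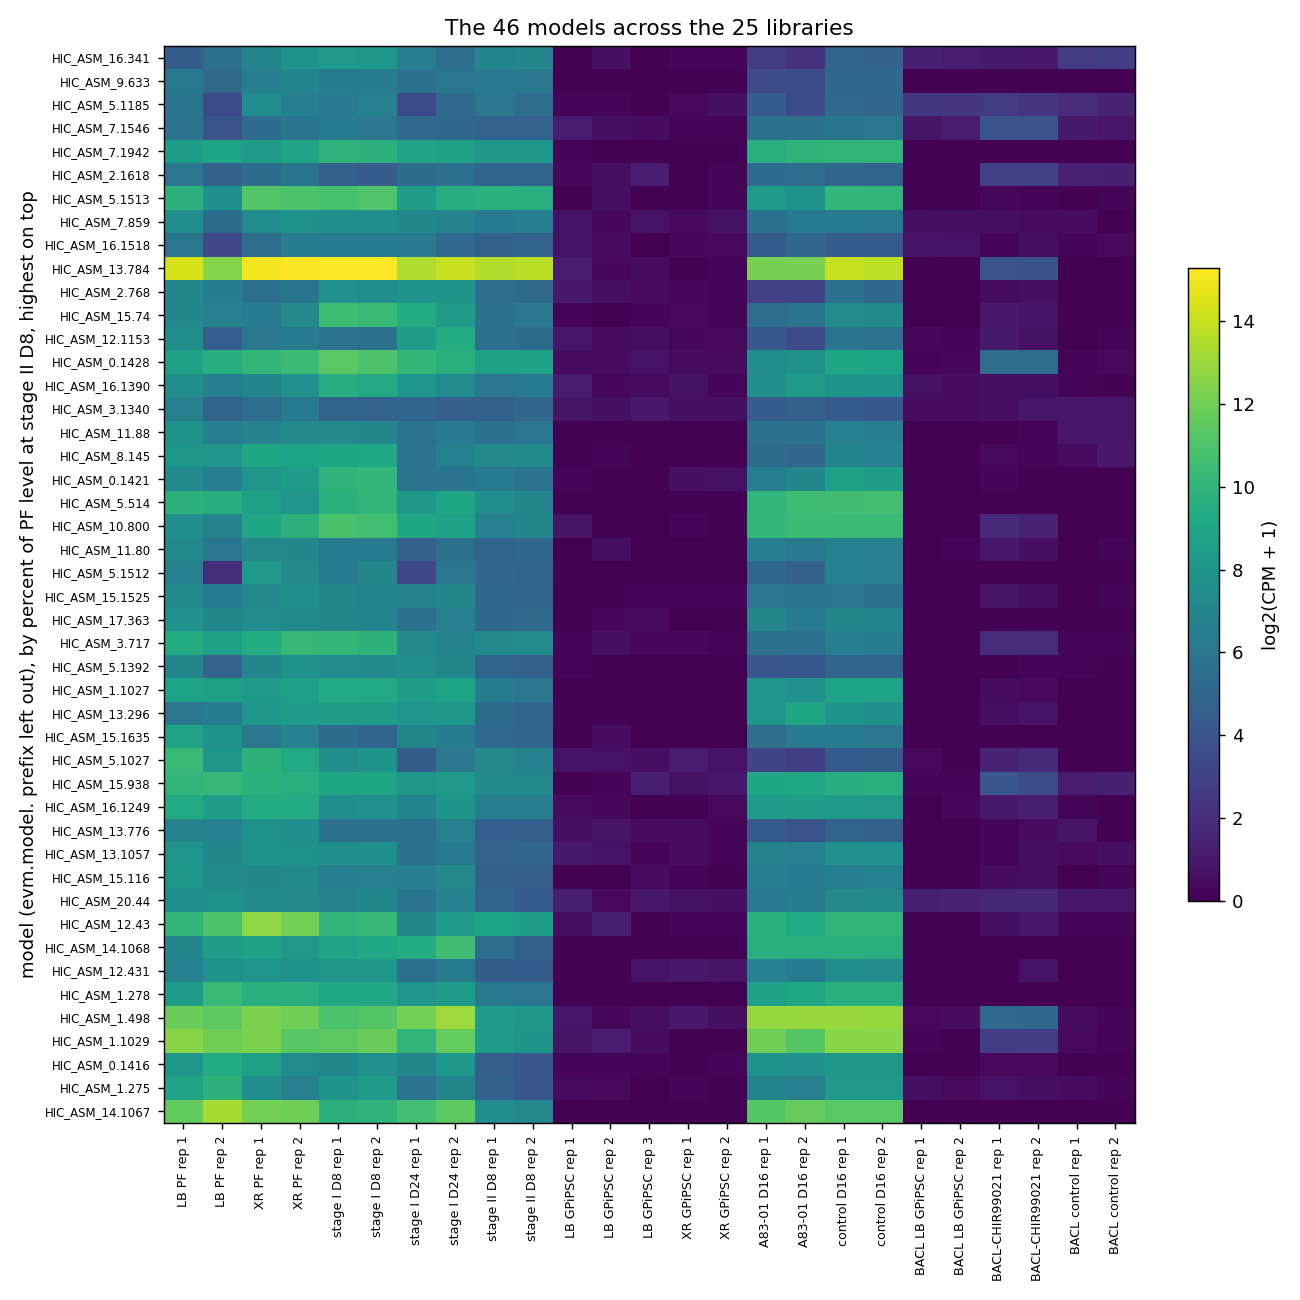
The 46 models (rows, ordered by their percent of the fibroblast level at stage II D8, highest on top) across the 25 libraries (columns), as log2(CPM + 1). The change from the stage II D8 columns to the GPiPSC columns runs through all rows, as the rule required. A few rows, such as evm.model.HIC_ASM_0.1428 and evm.model.HIC_ASM_1.498, show signal in the BACL-CHIR99021 columns.

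The models did not come from 1 place in the assembly. They lay on 17 scaffolds, with 6 on HIC_ASM_5 and 5 each on HIC_ASM_1 and HIC_ASM_15, and none on an ORI scaffold. In 8 pairs, with 15 models in all, the identifiers of neighbouring members on a scaffold differed by 10 numbers or less, and in 2 pairs they were consecutive. Where near-identical models share reads, their levels may not be independent. The consecutive pairs were evm.model.HIC_ASM_14.1067 and evm.model.HIC_ASM_14.1068, of 1083 and 1017 bases, and evm.model.HIC_ASM_5.1512 and evm.model.HIC_ASM_5.1513, of 735 and 5101 bases. Their estimated counts were whole numbers in all 25 libraries. Fractional counts occurred for evm.model.HIC_ASM_5.1185 (745.865 in LB PF replicate 1) and evm.model.HIC_ASM_2.1618 (599.553 in XR PF replicate 1). Sharing of reads was not tested. The first pair had different peaks, since the mean of evm.model.HIC_ASM_14.1067 was highest in LB PF and that of evm.model.HIC_ASM_14.1068 at stage I D24. Both models of the second pair had their highest mean in XR PF. Coding lengths ran from 306 bases (evm.model.HIC_ASM_13.296) to 5101 bases (evm.model.HIC_ASM_5.1513), with a median of 1215, against 1347 in the 3944 models and 1017 in all models. Over 3000 bases long were 12 of the 46 (26.1%), 12.5% of the 3944 and 7.91% of all models.

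The 2 fibroblast groups held the models at unequal levels. In XR PF 27 of the 46 were above LB PF, 11 of them over 2-fold, and 4 were over 2-fold below. The largest ratio was that of evm.model.HIC_ASM_16.341, a log2 ratio of 2.26, and the smallest that of evm.model.HIC_ASM_1.275, -2.32. The spread between the LB PF replicates given above is of the same size for many of them.

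Day 16 cultures were not used to choose the models, and their median level lay between those of the fibroblasts and stage II D8. Single models lay outside that range, with 38 of the 46 below the fibroblast mean in A83-01 D16 and 33 in control D16. In A83-01 D16 38 of the 46 were at 20 CPM or more and in control D16 44, where 42.6% and 40.1% of the models tested reached that level. Of the 118 models with the same fibroblast and GPiPSC limits that fell under 20 CPM along the way, 83 (70.3%) were at 20 CPM or more in A83-01 D16 and 82 (69.5%) in control D16. The median of the 46 was 88.1 CPM in A83-01 D16 and 155 CPM in control D16, or 44.5% and 70.4% of the fibroblast mean. The summed CPM was 26879 and 28016 in A83-01 D16 and 45121 and 44268 in control D16, without overlap between the groups.

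To ask whether the TGF-β receptor inhibitor changed these models, A83-01 D16 was compared with control D16. In A83-01 D16 14 of the 46 fell (30.4%) and 0 rose at an adjusted p under 0.05 (edgeR quasi-likelihood test), where 2.03% of the 17225 models tested were called lower and 4.19% higher. These shares are not for models of like level. In control D16, 44 of the 46 but only 40.1% of the models tested were at 20 CPM or more. At an unadjusted p under 0.05 in edgeR, 22 were lower and 0 higher, against 1007 lower and 1755 higher of the 17225 models tested. DESeq2 called 18 lower (39.1%) and 0 higher, where it called 2.79% of the models tested lower and 5.32% higher. The median log2 fold change of the 46 was -0.77, against 0.04 over all models tested, and both A83-01 libraries were below both control libraries for 33 of the 46 (17.6% of the models tested) and above both for 4 (41.4%). Of the 118 models that dropped under 20 CPM during reprogramming, 11 fell (9.32%) and 8 rose, with a median of -0.38. The difference from the 46 was not tested. Leaving out any of the 4 libraries left fewer calls, and the median log2 fold change of the 46 then lay between -0.89 and -0.75. A fit of these 4 libraries alone called 24 of the 46 lower (52.2%) and 0 higher. Of the 118 it called 45 lower (38.1%) and 17 higher, and of all models tested there 7.59% lower and 7.31% higher.

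The 14 fell by 1.04 to 2.79 on the log2 scale, and in all 14 the A83-01 libraries lay below both control libraries. The largest fall was that of evm.model.HIC_ASM_16.341, the model with the highest percent of its fibroblast level at stage II D8. It had 5.26 and 3.64 CPM in A83-01 D16 against 29.9 and 25.4 CPM in control D16, a log2 fold change of -2.79 ± 0.54 (SE, edgeR adjusted p = 0.00347). The next was evm.model.HIC_ASM_2.768, with 7.22 and 6.81 CPM in A83-01 D16 against 46.7 and 33.8 CPM in control D16, a log2 fold change of -2.66 ± 0.34 (SE, edgeR adjusted p = 0.000118). The model with the highest fibroblast mean in CPM, evm.model.HIC_ASM_13.784, fell as well, to 4491 and 4463 CPM in A83-01 D16 against 15558 and 14733 CPM in control D16, a log2 fold change of -1.90 ± 0.45 (SE, edgeR adjusted p = 0.0147). Its share of the summed CPM of the 46 was 16.7% and 15.9% in A83-01 D16 and 34.5% and 33.3% in control D16.

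Other abundant models did not pass the test. The model evm.model.HIC_ASM_1.498 had 7303 and 7877 CPM in A83-01 D16 and 7677 and 7534 CPM in control D16, and its groups overlapped (log2 fold change -0.14 ± 0.26, SE). For evm.model.HIC_ASM_14.1067 the values were 2472 and 3446 CPM in A83-01 D16 and 2648 and 2688 CPM in control D16, again with overlap (0.02 ± 0.41, SE). The highest log2 fold change was 0.65 ± 0.33 (SE), for evm.model.HIC_ASM_13.296, with 258 and 502 CPM in A83-01 D16 and 244 and 205 CPM in control D16, and did not pass (edgeR adjusted p = 0.377).

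**Figure D4:**
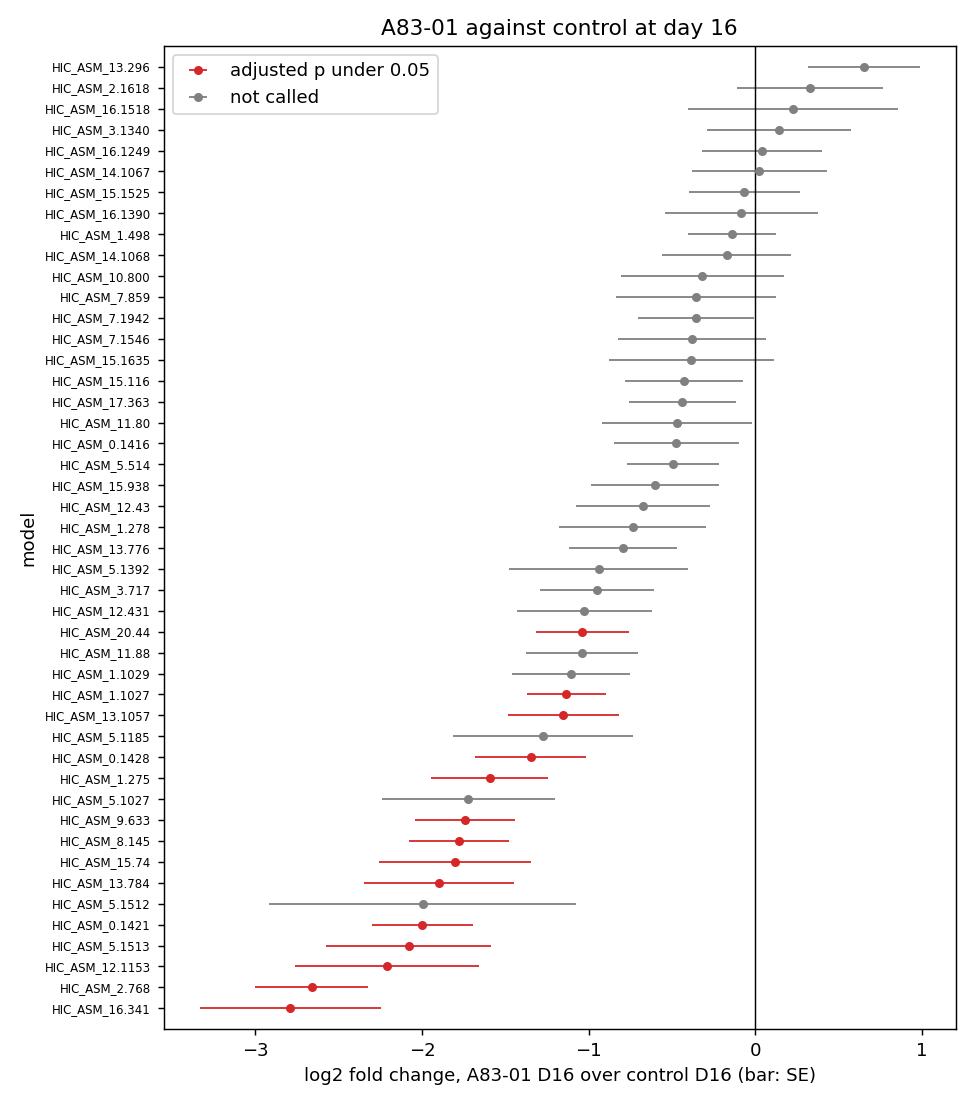
Log2 fold change of A83-01 D16 over control D16 for each of the 46 models (points, with the SE as bars), sorted by value; red points have an edgeR adjusted p under 0.05. The 14 red points lie between -2.79 and -1.04, and 6 models, none called, lie above 0.

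The A83-01 response was set beside retention to stage II, which rests on other libraries. Those are the stage II D8 and fibroblast libraries that the rule used, so the rule limited the range of retention in each set. At stage II D8 all 46 were at 20 CPM or more, against 3 of the 118. A link between retention and response was not tested. Of the 12 models at 50% or more of the fibroblast mean at stage II D8, 6 fell in A83-01 D16, with a median log2 fold change of -1.51 over the 12. Of the 28 at 10 to 50%, 7 fell (median -0.73), and of the 6 under 10%, 1 fell (median -0.61). Across the 46 models the log2 ratio of stage II D8 to fibroblasts correlated with the A83-01 log2 fold change at -0.30 (Pearson) and -0.21 (Spearman). The correlations were -0.48 and -0.42 across the 118 models that dropped under 20 CPM, and 0.44 and 0.52 across the 3944. These are descriptions across models, which share their libraries and are not independent replicates.

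In LB GPiPSC and XR GPiPSC the models were under 1 CPM because the rule required it. The BACL cultures were not used by the rule, and among them only BACL LB GPiPSC is labelled as pluripotent stem cells. In BACL LB GPiPSC 4 of the 46 had a mean of 1 CPM or more, in BACL-CHIR99021 14 and in BACL control 5. Of the models tested 76.8%, 82.8% and 77.5% reached that level. Of the 118 models that fell under 20 CPM along the way, 4 (3.39%), 45 (38.1%) and 4 (3.39%) reached it. In all 3 BACL groups 32 of the 46 were under 1 CPM. The summed CPM of the 46 was 12.9 and 13.0 in BACL LB GPiPSC, against 17.8, 13.6 and 13.0 in LB GPiPSC, whose level the rule had set. The 4 models in BACL LB GPiPSC were named after their values were seen. The highest of them, evm.model.HIC_ASM_5.1185, had 4.56 and 4.35 CPM in BACL LB GPiPSC against 0.172, 0.161 and 0.0849 CPM in LB GPiPSC, and the others, evm.model.HIC_ASM_20.44, evm.model.HIC_ASM_16.341 and evm.model.HIC_ASM_7.1546, had means of 1.69, 1.48 and 1.01 CPM in BACL LB GPiPSC.

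The cultures labelled BACL-CHIR99021 were compared with BACL control. In BACL-CHIR99021 17 of the 46 rose (37%) and 2 fell (4.35%) at an adjusted p under 0.05 (edgeR quasi-likelihood test), where 11.7% of the models tested were called higher and 4.44% lower. Among the 118 models that dropped under 20 CPM during reprogramming, 43 rose (36.4%) and 0 fell, with 1 lower at an unadjusted p under 0.05 in edgeR. The share that rose was 37% in the 46 and 36.4% in the 118, a difference that was not tested. Both BACL-CHIR99021 libraries were above both BACL control libraries for 29 of the 46 (47.1% of the models tested). Summed over the 46, BACL-CHIR99021 had 2048 and 2083 counts or 166 and 157 CPM, and BACL control 272 and 265 counts or 19.8 and 19.4 CPM. Without BACL control replicate 1, 9 rose and 3 fell, without BACL control replicate 2, 10 rose and 2 fell, and without BACL-CHIR99021 replicate 1 or replicate 2, 12 rose and 0 fell.

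Levels in BACL-CHIR99021 were far below those of fibroblasts, and a few models led them. The median of the 46 in BACL-CHIR99021 was 0.489 CPM, or 0.201% of the fibroblast mean, and 8 models were at 1% or more of it. The model evm.model.HIC_ASM_0.1428 was highest, with 43.6 and 44.3 CPM in BACL-CHIR99021 against 0.218 and 0.293 CPM, or 7 counts over both libraries, in BACL control. The ratio of its summed counts per total was 172, with a 95% counting interval of 83.3 to 429 (edgeR adjusted p = 3.02e-08). It was followed by evm.model.HIC_ASM_1.498, with 36.3 and 33.7 CPM in BACL-CHIR99021 against 0.436 and 0.220 CPM in BACL control, a ratio of 106 with an interval of 55.8 to 234 (edgeR adjusted p = 4.03e-09). These 2 were the only models of the 46 at 20 CPM or more in a BACL group. Without them the summed CPM was 86.7 and 79.2 in BACL-CHIR99021 and 19.1 and 18.9 in BACL control.

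The model with the highest fibroblast mean in CPM was among those that rose. With 14.6 and 12.8 CPM in BACL-CHIR99021 and 0 counts in both BACL control libraries, evm.model.HIC_ASM_13.784 was at least 62.4-fold higher, taking 3 counts in a BACL control library as the floor (edgeR adjusted p = 4.02e-06). This was 0.0560% of its fibroblast mean, whereas evm.model.HIC_ASM_7.1546, at 14.6 and 15.5 CPM in BACL-CHIR99021 and 1.16 and 0.879 CPM in BACL control, was at 35.1%. Of the 17 models that rose, 12 had 1 CPM or more in BACL-CHIR99021, and 9 had 3 counts or fewer over both BACL control libraries. The 27 models not called include 12 with 3 counts or fewer in all 4 libraries, for which a difference was not detectable at this depth.

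The 2 models that fell were named after their values were seen. The model evm.model.HIC_ASM_16.341, which had the largest fall with A83-01, had 1.14 and 1.06 CPM in BACL-CHIR99021 against 5.52 and 6.22 CPM in BACL control, a log2 fold change of -2.54 ± 0.62 (SE, edgeR adjusted p = 0.00778). The model evm.model.HIC_ASM_11.88 had 3 counts in BACL-CHIR99021 and 24 counts in BACL control over both libraries (edgeR adjusted p = 0.0112). Set side by side, 6 of the 14 models that fell in A83-01 D16 rose in BACL-CHIR99021, 1 fell and 7 were not called. Of the 32 not called in A83-01 D16, 11 rose, 1 fell and 20 were not called. Among all 46 the share that rose was 37%, and a link between these comparisons was not tested. The model in both lists of falls was evm.model.HIC_ASM_16.341.

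**Figure D5:**
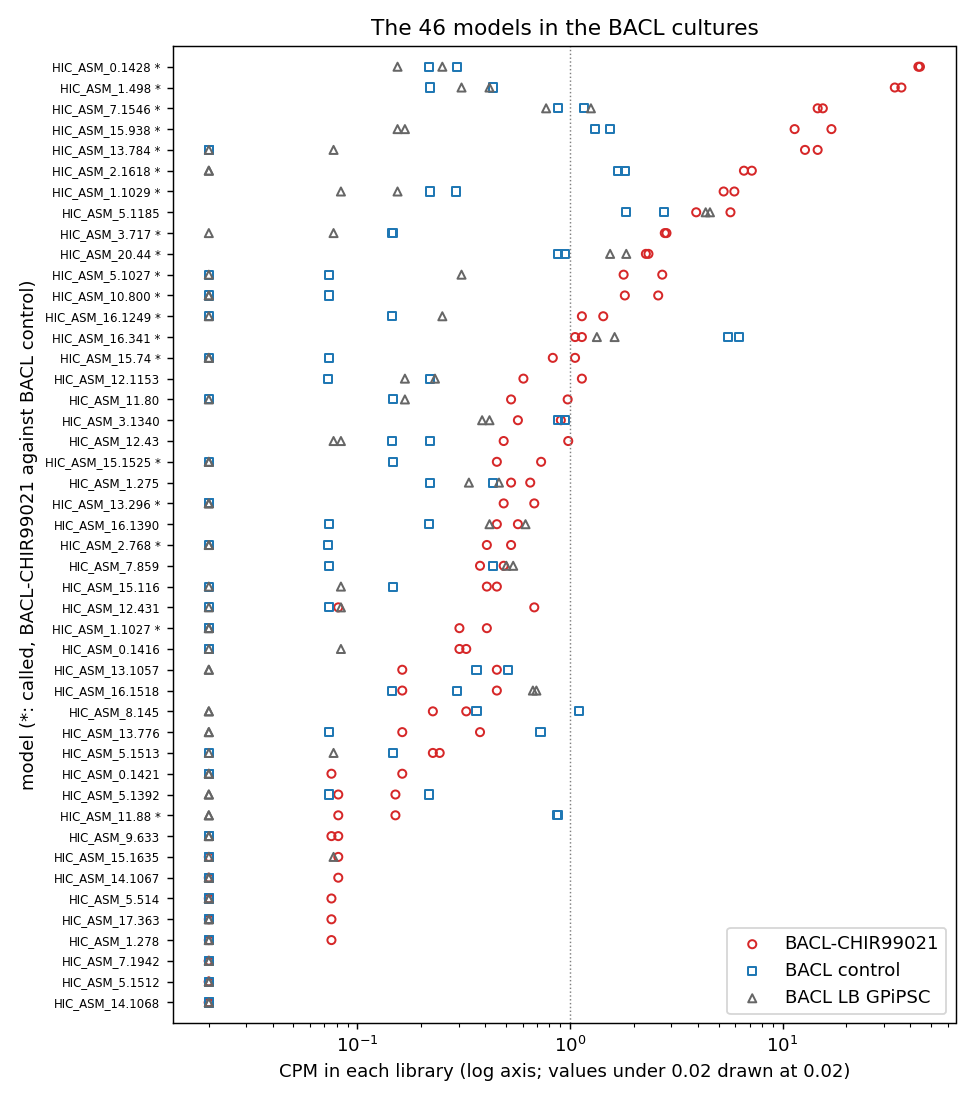
CPM of each of the 46 models (rows, ordered by their mean in BACL-CHIR99021) in each BACL library (log axis), as circles for BACL-CHIR99021, squares for BACL control and triangles for BACL LB GPiPSC; an asterisk marks models called between BACL-CHIR99021 and BACL control. The top rows reach 44.3 CPM in BACL-CHIR99021, while 32 models have a mean under 1 CPM in all 3 groups.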

How the data were processed

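RNA was sequenced in 25 libraries, and the submitters' processing notes name kallisto. Its version and index are not given here, and the build is not stated in the sources used. Per the file headers, each deposited table holds 1 library, with the estimated count and TPM of each model beside its length and effective length. For testing, the deposited estimated counts were made whole by rounding, and the deposited TPM values, scaled to effective length and library total by the authors' tool, served for levels between models and for alternatives. Sample titles gave the group and the replicate number. The 46 models and the tests were chosen with earlier results of these data known.

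All libraries entered 1 edgeR 4.0.16 fit in R 4.3.3 of 12 groups (13 residual degrees of freedom), with filterByExpr (17225 models kept, all 46 among them), TMM, robust quasi-likelihood F tests and Benjamini-Hochberg adjustment over all models tested. The SE of a log2 fold change comes from the F statistic. Counting intervals are exact (Clopper-Pearson) and, like the floor of 3 counts, cover counting error only. Simulated data with known changes were used to test this fit.

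Results were recomputed with DESeq2 1.42.0, RLE size factors, all models unfiltered, a fit of the compared libraries alone, a replicate block, limma 3.58.1 on log2(TPM + 1) and log2(TPM + 0.1), other thresholds and scales for the rule, and each library left out. Models were named by rule: the ends of level, range, length and BACL level, those nearest each threshold, the 2 called with the largest change per direction and comparison (at least 10 CPM in the higher group), and consecutive identifiers. Others are named as examples, chosen after their values were seen.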

Additional observations from a re-analysis of the deposited data

How the results depend on the processing

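Of 126 recomputed counts 102 stayed within 1.5 times their value, and the 44 recomputed log2 fold changes of the 4 models named by rule in the tested comparisons kept their sign and call. These 4 were picked for the largest changes among called models, so their stability says nothing about the other models. The size of the change was not kept for evm.model.HIC_ASM_13.784, which had 0 counts in BACL control. Its log2 fold change in BACL-CHIR99021 ran from 1.34 to 10.4 over the settings. The rule found 25 models with a 40 CPM minimum, 27 with a 0.5 CPM maximum and 27 where every library had to pass, and 42 to 50 with a library left out. With TMM scaling it found 59 and on the deposited TPM 39, of which 24 were among the 46. Falls in A83-01 D16 numbered 24 with only the 4 libraries in the fit, 9 with limma on log2(TPM + 0.1) and 5 to 6 with a library left out, and rises were 0 in each of these; a lone library is then assumed to vary like those of other groups. In BACL-CHIR99021, limma on log2(TPM + 1) called 10 higher and 1 lower and on log2(TPM + 0.1) 1 lower, the median of all models being 0.15 and 0.23 there against 0.00; with a library left out 9 to 12 were higher and 0 to 3 lower. Models over 2-fold higher numbered 14 with TMM scaling at stage I D8 (8 to 10 with a library left out), 3 with TMM scaling and 3 on TPM at stage I D24 (3 to 7), and 5 with TMM scaling at stage II D8 (1 to 6). The cause was not tested. Deviations of same-numbered replicates correlated across models at -0.02 and -0.02. With 2 replicates per group this cannot decide whether they were paired. A replicate block gave 13 falls in A83-01 D16, and 16 rises and 2 falls in BACL-CHIR99021.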
